A study of Mus musculus with 9 samples.

Results

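The genes described here are 39 genes of macrophages and other leukocytes, chosen by name with earlier results of these data known. Each is represented by its brightest probe set among those with a single symbol in the platform annotation. A probe set is a group of short probes on an Affymetrix Mouse Genome array that reads 1 transcript. Of the 39 genes, 38 had such a probe set, out of 18193 genes in all, and Lyn, a Src family kinase, is not analysed here. The tissue was the optic cup of mouse embryos at E11.5, while the optic fissure on its ventral side is still unfused. RNA came from cells cut out by laser, with 3 arrays, lettered A, B and C, for each of 3 regions. The regions were the optic fissure (cup cells no further than 5 cell diameters from its edge) and, as references, central nasal and central temporal cup. The labels give no strain, genotype or treatment, and only the region differs between groups. They call the arrays of a region biological replicates and name no embryos, so every p-value here rests only on how these samples scatter.

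Macrophages reach the embryonic eye early, first from the yolk sac, and their descendants in the retina are the microglia. They carry the receptor for colony stimulating factor 1, clear dying cells and make complement C1q. The optic fissure is the opening through which mesenchyme and the hyaloid vessels enter the eye, and macrophages are known around those vessels. Many macrophage genes are bound near their start by PU.1, a transcription factor encoded by Spi1.

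The fissure arrays had higher levels of 28 of the 33 members that could be tested, where 5.72% of all tested genes were higher. No member was lower, where 2.88% of all tested genes were. The 28 include C1qa, C1qc and Aif1, which were tested through their fissure arrays alone. Mrc1, Cybb, Cd52, Fcgr3, Lyz2, Cd53, Cd14 and Rac2, also among the 28, needed their fissure arrays to be tested as well. Among the 22 members that nasal or temporal arrays alone made bright enough to test, 17 were higher, against 4.96% of all such genes. The lysosomal protease gene Ctss averaged 740.0 ± 76.0 in the fissure against 95.7 ± 33.8 in nasal cup and 77.6 ± 25.5 in temporal cup (intensity, SD, n = 3 arrays each). The pore-forming protein gene Mpeg1 averaged 303.0 ± 54.5 in the fissure against 30.2 ± 5.60 and 26.6 ± 15.4 in nasal and temporal cup. No member passed between nasal and temporal cup. The members without a call included Ptpn6, Vav1 and Dock2, which encode signalling proteins of all leukocytes, and 5 members too dim to test.

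The promoter windows of 4 members are shown because they hold the PU.1 core GAGGAAGT or its reverse complement ACTTCCTC, printed in capitals in otherwise lower-case sequence. Each window is RefSeq sequence of GRCm38.p6, runs 5′ to 3′ on the strand of the gene, and covers 250 bases before the annotated start and 50 from it. Counting the start as 0, the motif begins at -2 in Ctss, at -195 in C1qc, at 6 in Cd53 and at -11 in Vav1. The window of Ctss is chr3:95526536-95526835 on the plus strand and that of C1qc is chr4:136892865-136893164 on the minus strand. The window of Cd53 is chr3:106790100-106790399 on the minus strand and that of Vav1 is chr17:57278850-57279149 on the plus strand.
Ctss: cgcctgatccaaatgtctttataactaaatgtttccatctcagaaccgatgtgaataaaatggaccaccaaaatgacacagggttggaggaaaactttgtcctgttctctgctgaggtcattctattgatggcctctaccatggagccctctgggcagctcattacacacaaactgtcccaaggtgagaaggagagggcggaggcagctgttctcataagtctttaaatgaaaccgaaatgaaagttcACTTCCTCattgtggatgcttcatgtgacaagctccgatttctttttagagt
C1qc: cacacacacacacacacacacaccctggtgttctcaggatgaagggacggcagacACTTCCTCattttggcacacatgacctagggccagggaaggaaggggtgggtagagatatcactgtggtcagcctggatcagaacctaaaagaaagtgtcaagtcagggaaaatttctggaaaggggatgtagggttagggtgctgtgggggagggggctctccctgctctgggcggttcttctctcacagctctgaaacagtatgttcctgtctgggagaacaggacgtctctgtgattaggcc
Cd53: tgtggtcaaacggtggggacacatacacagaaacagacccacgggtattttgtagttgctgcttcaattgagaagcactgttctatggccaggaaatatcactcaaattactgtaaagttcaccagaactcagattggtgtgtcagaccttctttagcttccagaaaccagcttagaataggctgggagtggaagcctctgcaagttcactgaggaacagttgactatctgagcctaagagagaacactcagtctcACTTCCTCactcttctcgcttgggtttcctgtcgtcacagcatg
Vav1: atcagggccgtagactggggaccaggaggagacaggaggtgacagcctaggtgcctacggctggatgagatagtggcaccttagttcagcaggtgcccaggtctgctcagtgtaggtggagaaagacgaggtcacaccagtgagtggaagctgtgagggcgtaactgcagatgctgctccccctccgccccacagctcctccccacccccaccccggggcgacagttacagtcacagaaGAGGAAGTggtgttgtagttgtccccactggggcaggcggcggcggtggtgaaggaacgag
Windows were at hand for 29 of the 39 members, 36 windows in all, and some windows of 1 gene overlap. The 8-base core stood on either strand in 5 of these 36 windows (13.9%), those of C1qc, Cd53, Ctss, Inpp5d and Vav1, against 1052 of 32851 windows of all genes (3.2%). The shorter core GAGGAA, which the longer one contains, stood in 19 of the 36 (52.8%) against 28.3% of all windows. A match describes the letters and does not show binding.

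Array facts common to all genes bear on these values as follows. Every array had been scaled to a trimmed mean of 150, and the 40th percentile of an array, used here as the line between dim and bright, lay between 15.7 and 17.5. The optic cup marker genes Pax6, Six6 and Sox2 averaged 1560, 1270 and 1540 in the fissure and 1390 to 3200 in nasal and temporal cup, and of 6 tested cup genes Pax6 was lower in the fissure (log2 change -0.94, adjusted p = 0.00147) and 0 higher. The summed cup genes read 5614.9 to 6290.9 in the fissure, below all nasal (7249.3 to 7968.4) and temporal (7187.5 to 7873.1) arrays, with a median log2 change of -0.25. The part of this lower cup signal in the members' change was not tested. The ratio of 3-prime to 5-prime signal of Gapdh, a measure of RNA integrity, was 4.93 to 15 in the fissure, 4.9 to 8.77 in nasal and 4.46 to 7.42 in temporal cup. With this ratio as a covariate, 27 members were higher, where 8.11% of all genes were called in either direction. The poly-A RNA spiked in during labelling also read brighter in the fissure, at a mean log2 of 6.41 to 7.33, against 6.09 to 6.63 in nasal and 5.85 to 6.56 in temporal cup, and with it as a covariate 24 members were higher, where 3.48% of all genes were called in either direction. Against nasal and temporal cup alone, 21 and 18 members were then higher.

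The first comparison sets the fissure against the average of both sides of the cup, on the log2(intensity + 16) scale, which understates the change of dim genes. Testing was limited to genes above the 40th percentile on at least 3 arrays, which kept 12770 genes and 33 members. In limma, 28 of the 33 members passed at an adjusted p below 0.05 as higher, where 5.72% of all tested genes did, and 0 passed as lower, where 2.88% of all did. The median log2 change was 1.54 over the tested members and 0.04 over all tested genes. With the replicate block, 29 members were higher, against 11% of all genes. The 33 are not all members, and a gene bright in the fissure alone enters the test through that brightness. Only C1qa, C1qc and Aif1 lay above the percentile on the 3 fissure arrays and on no other array. All 3 passed, as did 85.1% of all 67 genes of that kind, and nothing is read from their calls. Mrc1, Cybb, Cd52, Fcgr3, Lyz2, Cd53, Cd14 and Rac2 lay above the percentile on only 1 or 2 nasal or temporal arrays. They too needed their fissure arrays to be tested. Without the filter all of these but Rac2 passed in limma (adjusted p = 0.0700 for Rac2). Of 22 members above the percentile on at least 3 nasal or temporal arrays, 17 were higher, against 4.96% of all such genes. Without any filter, 27 of 38 members were higher, against 3.67% of 18193 genes, with a median of 1.38. The 3 fissure arrays lay above all 6 others in 28 of 38 members, against 6.54% of all genes. In tissue captures, fewer cells of a type and less RNA per cell cannot be told apart.

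**Figure D1:**
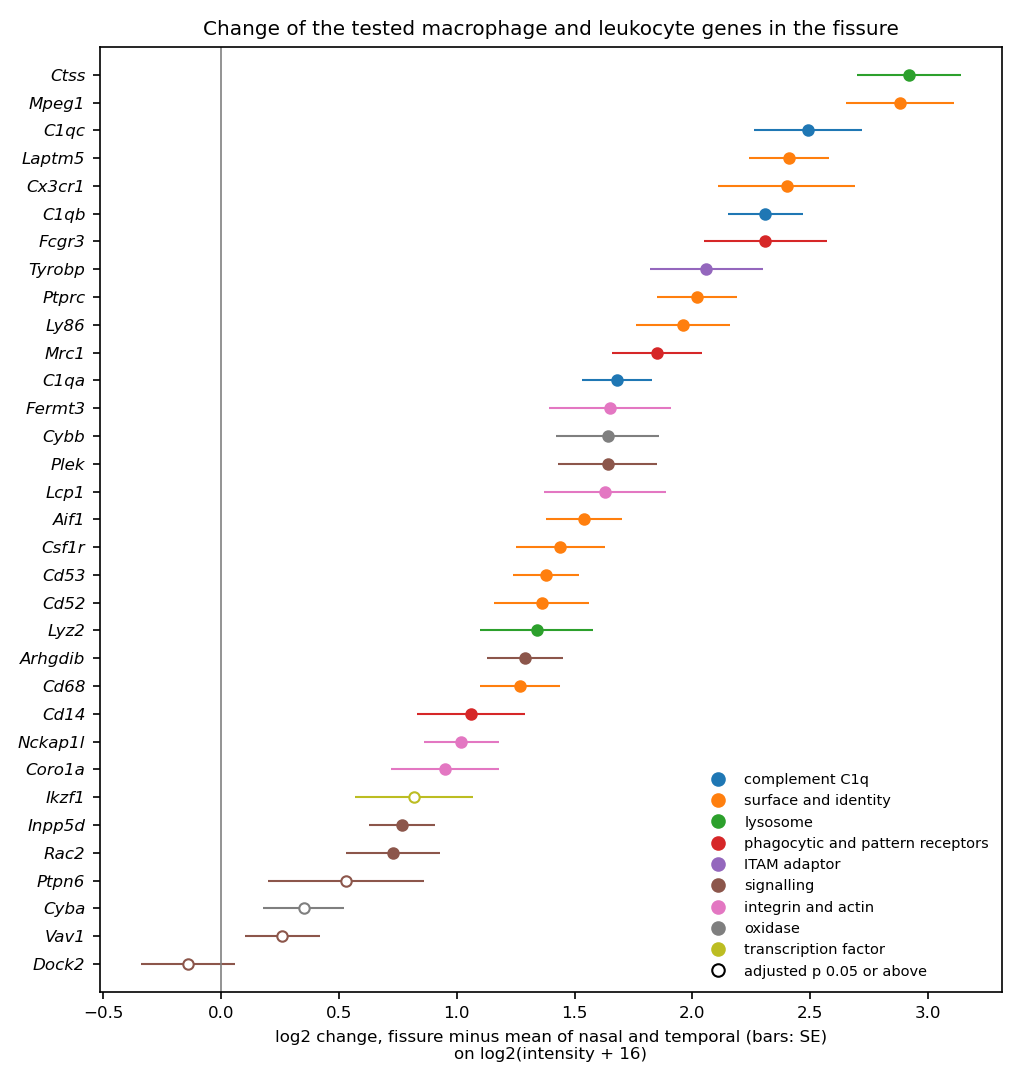
Log2 change of the 33 tested members, fissure minus the mean of nasal and temporal cup, on log2(intensity + 16), with bars of 1 SE and colours for the role of each gene. Filled points passed at an adjusted p below 0.05, from Ctss at 2.92 down to Rac2 at 0.73, and the open points are Ikzf1, Ptpn6, Cyba, Vav1 and Dock2.

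For the 3 genes of complement C1q, the molecule that tags dying cells and synapses for uptake, the fissure arrays read above all others. C1qb was higher by test, and C1qa and C1qc, bright in the fissure alone, are described without one. C1qa read 46.0, 30.9 and 54.2 on fissure arrays A, B and C, 1.3, 1.3 and 4.6 on nasal arrays and 1.7, 2.7 and 2.6 on temporal arrays (log2 change 1.68, SE 0.15). C1qb read 227, 216 and 249.6 in the fissure, 51.4, 47.9 and 27.9 in nasal and 32.2, 22.9 and 26.3 in temporal cup (log2 change 2.31, SE 0.16, limma adjusted p = 1.10e-05). The fissure arrays stood clear of the 6 others for both, and array B was the lowest of the 3. C1qc, whose promoter window is printed above, read 130.4, 50.5 and 118 in the fissure, 2.1, 6.1 and 1.4 in nasal and 2.7, 1.9 and 6.8 in temporal cup (log2 change 2.49, SE 0.23). Its nasal and temporal values all lay under the 40th percentile, so the size of its change depends on the constant of 16. The 3 probe sets of C1qb changed by 2.31, 2.60 and 2.37.

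Of 11 genes of surface proteins and macrophage identity, 10 were tested, and all of these passed as higher, Aif1 among them through its fissure arrays alone. Cd53 and Cd52 also needed their fissure arrays to be tested, and both passed without the filter (limma adjusted p = 2.67e-04 and 0.00300). Laptm5, a lysosomal membrane protein of leukocytes, read 293, 239 and 300.1 in the fissure, 39.5, 51.1 and 41.0 in nasal and 33.3, 49.0 and 25.1 in temporal cup (log2 change 2.41, SE 0.17, adjusted p = 9.80e-06). Mpeg1 read 359.6, 250.8 and 299.7 in the fissure, 25.1, 36.2 and 29.3 in nasal and 33.4, 37.4 and 8.9 in temporal cup (2.88, SE 0.23, adjusted p = 2.49e-05). By log2 change Ctss stood at rank 8 and Mpeg1 at rank 9 of the 12770 tested genes. Ptprc, which encodes CD45, a surface phosphatase of leukocytes, read 129, 87.7 and 142 in the fissure, 22, 23.8 and 14.8 in nasal and 17.1, 16.1 and 9.7 in temporal cup (2.02, SE 0.17, adjusted p = 3.24e-05). Aif1, which encodes the actin-binding protein IBA1 used to stain microglia, read 50.7, 37.0 and 56.0 in the fissure, 9.4, 5.7 and 5.2 in nasal and 2.0, 4.7 and 9.1 in temporal cup (log2 change 1.54, SE 0.16, described without a test). None of these genes had overlapping regions, and array B was the lowest fissure array for each. With the probe sets of a gene averaged, the log2 change was 0.71 for Laptm5 (adjusted p = 0.0142) and 1.21 for Ptprc (adjusted p = 2.14e-04).

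Ly86, the partner of the Toll-like receptor relative CD180, read 131, 98.9 and 136 in the fissure, 29.6, 18.3 and 11.3 in nasal and 28.9, 21.3 and 10.9 in temporal cup (log2 change 1.96, SE 0.20, adjusted p = 1.33e-04). The tetraspanin gene Cd53 read 70.2, 54.9 and 71.8 in the fissure, 12.3, 18 and 15.7 in nasal and 20.5, 12.7 and 13.1 in temporal cup (1.38, SE 0.14, adjusted p = 1.31e-04). The fissure arrays again lay above all others, and with probe sets averaged the log2 change of Cd53 was 0.84 (adjusted p = 4.33e-04). Cx3cr1, the receptor for the chemokine fractalkine, averaged 260.0 ± 86.0 in the fissure against 40.7 ± 13.4 and 32.8 ± 18.5 in nasal and temporal cup (2.40, SE 0.29, adjusted p = 3.72e-04). Csf1r, the receptor for CSF1 and IL-34, averaged 894.0 ± 49.5 in the fissure against 328.0 ± 78.5 and 326.0 ± 78.3 (1.44, SE 0.19, adjusted p = 6.40e-04). The fissure arrays lay above the 6 others, all of which were well above the 40th percentile. Its other 2 probe sets had log2 changes of 1.17 (adjusted p = 0.00118) and 0.54 (adjusted p = 0.0608) in a fit over all probe sets. The endosomal glycoprotein gene Cd68 (log2 change 1.27) and the small surface glycoprotein gene Cd52 (1.36) were also higher. Cd86, a costimulatory ligand for T cells, read 23.0, 11.8 and 11.1 in the fissure, 13.4, 2.0 and 0.4 in nasal and 7.1, 4.6 and 15.9 in temporal cup, with overlapping regions, and was too dim to test.

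**Figure D2:**
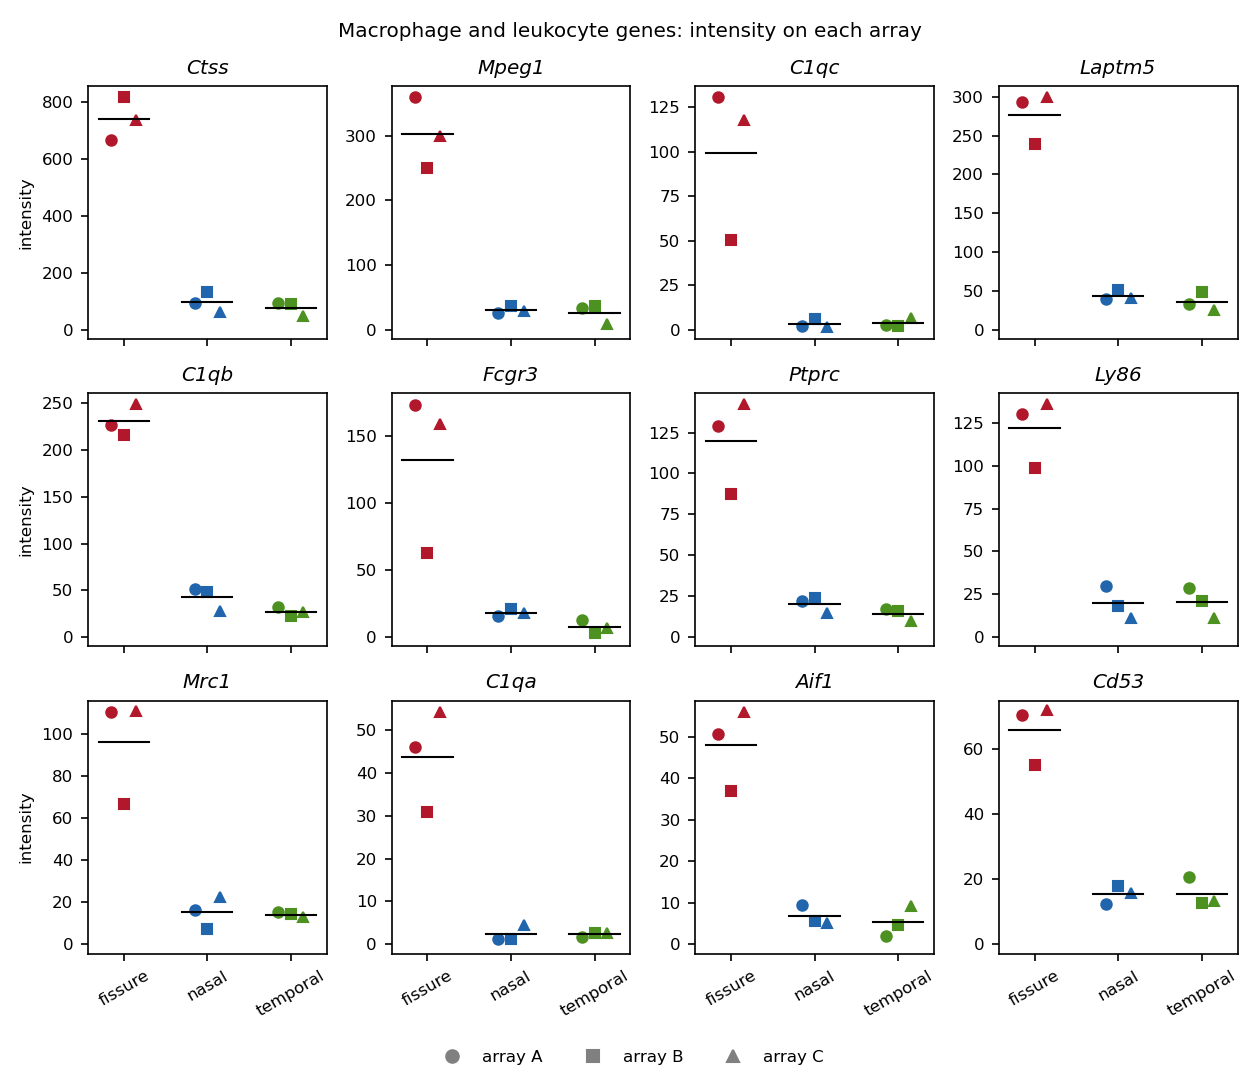
Deposited intensity (linear axis) on each of the 9 arrays for the 12 members with the smallest p in fissure against the average of both sides. Marker shapes give the letter and black lines the mean of 3 arrays, and in every panel all fissure arrays lie above all others, with array B lowest except for Ctss.

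Both lysosomal members were higher. Ctss, which encodes cathepsin S, read 667, 818 and 736 in the fissure, 92.2, 131 and 63.8 in nasal and 94.8, 89.7 and 48.3 in temporal cup (log2 change 2.92, SE 0.22, adjusted p = 1.64e-05). Array B was the highest fissure array for Ctss, unlike most members. Lyz2, the macrophage lysozyme gene, averaged 60.4 ± 26.6 in the fissure against 17.5 ± 5.46 and 9.47 ± 6.07 in nasal and temporal cup (1.34, SE 0.24, adjusted p = 0.00460, and 0.00938 without the filter). Its near-identical neighbour Lyz1 averaged 133.0 against 7.83 and 8.63, and the probes of this pair may read both transcripts.

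Among the receptors for uptake and microbial patterns, 3 of 3 tested members were higher, but each met the filter only with its fissure arrays. Without the filter Mrc1, Fcgr3 and Cd14 passed as well (limma adjusted p = 3.15e-04, 6.60e-04 and 0.0252). Mrc1, the mannose receptor CD206, read 110.5, 66.8 and 110.6 in the fissure, 16.4, 7.3 and 22.4 in nasal and 15.1, 14.2 and 13.1 in temporal cup (log2 change 1.85, SE 0.19, adjusted p = 1.16e-04). Fcgr3, an activating receptor for the Fc part of IgG, read 174, 62.9 and 159.6 in the fissure, 15.8, 20.9 and 17.7 in nasal and 12.7, 2.6 and 6.4 in temporal cup (2.31, SE 0.26, adjusted p = 2.11e-04). Fissure array B read far below the other fissure arrays for Fcgr3, yet above every nasal and temporal array. Cd14, the co-receptor for lipopolysaccharide, averaged 41.8 ± 13.5 in the fissure against 10.1 ± 9.29 and 13.8 ± 5.15 (1.06, SE 0.23, adjusted p = 0.0146). It missed the threshold without fissure array A (1.07, adjusted p = 0.0671), without fissure array C (0.89, adjusted p = 0.0910), with the poly-A covariate (1.02, adjusted p = 0.146) and with a constant of 1 (1.97, adjusted p = 0.0926). Trem2, a lipid receptor of microglia and other macrophages, read 12.3, 14.5 and 15 in the fissure, 31.3, 3.7 and 2.7 in nasal and 1.7, 5.2 and 8.8 in temporal cup. Only nasal array A lay above its 40th percentile for Trem2, so this gene was not tested.

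The adaptors of some of these receptors carry ITAM motifs, short tyrosine motifs that recruit the kinase Syk. Tyrobp, which encodes DAP12, the adaptor of TREM2, averaged 152.0 ± 65.1 in the fissure against 26.4 ± 0.651 and 18.4 ± 8.03 in nasal and temporal cup (log2 change 2.06, SE 0.24, adjusted p = 2.61e-04). Fcer1g, the common gamma chain of Fc receptors, read 72.8, 10.5 and 66.3 in the fissure, 14.0, 1.4 and 13.7 in nasal and 2.9, 6.7 and 2.7 in temporal cup. Fissure array B lay inside the range of the other regions, and Fcer1g lay above the 40th percentile on fissure arrays A and C alone, so it was not tested. Without the filter its log2 change was 1.37 (SE 0.35, adjusted p = 0.0526).

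Intracellular signalling members were divided, with 4 of 7 higher. Plek, which encodes pleckstrin, a protein kinase C substrate of platelets and leukocytes, averaged 162.0 ± 41.7 in the fissure against 36.0 ± 10.8 and 46.5 ± 12.5 (log2 change 1.64, SE 0.21, adjusted p = 4.68e-04). A second probe set of Plek did not pass in a fit over all probe sets (0.45, limma adjusted p = 0.221). Arhgdib changed by 1.29 (adjusted p = 5.24e-04) and Inpp5d, the lipid phosphatase SHIP1, by 0.77 (adjusted p = 0.00512). A second probe set of Inpp5d had a log2 change of -0.17 (adjusted p = 0.736), and with the probe sets of a gene averaged the adjusted p of Inpp5d was 0.250. Rac2, the Rac GTPase of blood cells, passed narrowly (0.73, adjusted p = 0.0481) and kept its call under 5 of 20 alternatives.

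The other 3 signalling members did not pass in the fit reported here. Ptpn6, the phosphatase SHP-1, read 58.0, 29.8 and 80.4 in the fissure, 37.6, 36.3 and 46.9 in nasal and 6.0, 57.2 and 25.1 in temporal cup (log2 change 0.53, SE 0.33, adjusted p = 0.384). Ptpn6 passed as higher with array weights (0.92, adjusted p = 0.0157) and without the letter B arrays (1.02, adjusted p = 0.0425). Vav1, a Rac activator whose window is printed above, read 21.9, 38.2 and 31.3 in the fissure, 17.6, 19.9 and 21.4 in nasal and 19.4, 34.1 and 23.5 in temporal cup (0.26, SE 0.16, adjusted p = 0.378). With its probe sets averaged, Vav1 passed as higher (0.48, adjusted p = 0.0387). Dock2, another Rac activator, read 27.7, 10.2 and 16.2 in the fissure, 30.3, 24.7 and 15 in nasal and 13.9, 27.5 and 16.3 in temporal cup (-0.14, SE 0.20, adjusted p = 0.737). The regions overlapped for all 3 genes. Dimmer probe sets of Vav1 and Dock2 gave other values. That of Vav1 averaged 14.9 in the fissure against 1.70 in nasal cup and 4.43 in temporal cup, and that of Dock2 12.9 against 1.53 and 1.87. These lay under the 40th percentile on all but 1 array and were not tested.

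Of the integrin and actin members, 4 of 4 tested were higher. Fermt3, which encodes kindlin-3, the integrin activator of blood cells, averaged 112.0 ± 54.1 in the fissure against 20.6 ± 2.55 and 24.6 ± 9.57 (log2 change 1.65, SE 0.26, adjusted p = 0.00201). Lcp1, the actin bundler L-plastin, averaged 161.0 ± 77.2 against 35.9 ± 4.86 and 39.8 ± 13.1 (1.63, adjusted p = 0.00239). Nckap1l, the blood cell subunit of the WAVE actin complex, averaged 56.0 ± 2.36 against 18.3 ± 4.37 and 21.7 ± 8.31 (1.02, adjusted p = 0.00208), and its second probe set changed by 1.28. In the same fit over all probe sets, second probe sets of Fermt3 and Lcp1 did not pass (0.20 and 0.59, limma adjusted p = 0.619 and 0.113). Coro1a, which encodes coronin 1A, changed by 0.95 (adjusted p = 0.0272) with regions that overlapped. A second probe set of Coro1a, with every fissure array above the others, changed by 1.18 (limma adjusted p = 0.00420 over all probe sets). Coro1a missed the threshold when fissure array A (0.81, adjusted p = 0.155), fissure array C (0.78, adjusted p = 0.149), nasal array A (0.91, adjusted p = 0.0637) or temporal array A (0.96, adjusted p = 0.0527) was left out. It also missed with the poly-A covariate (0.75, adjusted p = 0.313) and with a constant of 1 (1.14, adjusted p = 0.0559). The integrin chains CD11b and CD18 were too dim to test. Itgam (CD11b) read 5.7, 7.9 and 7.8 in the fissure, 4.9, 8.6 and 4.3 in nasal and 4.5, 14.0 and 6.1 in temporal cup. Itgb2 (CD18) read 14.0, 13 and 12.9 in the fissure, 1.9, 2.7 and 2.9 in nasal averaged 7.37 ± 5.08 in temporal cup. The fissure arrays were the highest for Itgb2 and overlapped the others for Itgam.

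Of the 2 membrane subunits of the phagocyte NADPH oxidase, 1 passed. Cybb, the catalytic subunit, averaged 58.5 ± 21.1 in the fissure against 6.50 ± 5.57 and 9.2 ± 6.42 (log2 change 1.64, SE 0.22, adjusted p = 7.38e-04, and 0.00183 without the filter). Cyba, its partner, which many other cells also express, read 286, 238 and 201 in the fissure, 202, 193 and 144 in nasal and 227, 204 and 152 in temporal cup (0.35, SE 0.17, adjusted p = 0.273, and 0.0472 with the replicate block). With the poly-A covariate the log2 change of Cyba was 0.73 (adjusted p = 0.0427). Ikzf1, the lymphoid and myeloid transcription factor Ikaros, read 41.7, 53.0 and 32.1 in the fissure, 5.9, 24.3 and 35.3 in nasal and 20.7, 7.9 and 14.4 in temporal cup (0.82, SE 0.25, adjusted p = 0.0703). Nasal array C lay inside the fissure range for Ikzf1, and it passed without that array (0.95, adjusted p = 0.0322) and with array weights (0.80, adjusted p = 0.0130).

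Several members have more than 1 probe set, and these were compared as a check on the choice of the brightest. The 38 members have 69 probe sets, and 20 members have more than 1. In a fit over 23503 probe sets, 47 of the 69 were tested, and 32 were higher, where 3.82% of all probe sets were, and 0 lower. The probe sets of Laptm5 gave unequal changes, with the brightest at 2.41 and the others tested, none of which passed, at 0.64, 0.60 and -0.05 (adjusted p = 0.0942, 0.158 and 0.920).

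The fissure was then set against each side of the cup, 2 comparisons that share the 3 fissure arrays. Against nasal cup, 26 members were higher, where 4.41% of all tested genes were, and 0 lower, where 1.97% were. Against temporal cup, 25 were higher, where 3.47% of all were, and 0 lower, where 1.9% were. Ctss changed by 2.80 against nasal and by 3.05 against temporal cup, Mpeg1 by 2.78 and 2.97, and Csf1r by 1.43 and 1.44. The medians over tested members were 1.48 against nasal and 1.55 against temporal cup. Cd14 passed against nasal (adjusted p = 0.0220) and missed against temporal cup (adjusted p = 0.0688), and its nasal against temporal level did not pass (log2 change -0.24, adjusted p = 1).

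Nasal and temporal cup were compared with each other in the same fit. In limma 0 of 33 members passed in either direction, where 0.0235% of all tested genes were higher and 0.0235% lower in nasal cup, and 1 member had an unadjusted p below 0.05. That member was C1qb, at 42.4 ± 12.7 in nasal and 27.1 ± 4.71 in temporal cup (log2 change 0.42, SE 0.19, unadjusted p = 0.0467, adjusted p = 1). The largest difference was that of Fcgr3, at 18.1 ± 2.58 in nasal and 7.23 ± 5.10 in temporal cup (0.58, adjusted p = 1). The median was 0.02, and a p that misses the threshold does not show that the levels are alike.

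**Figure D3:**
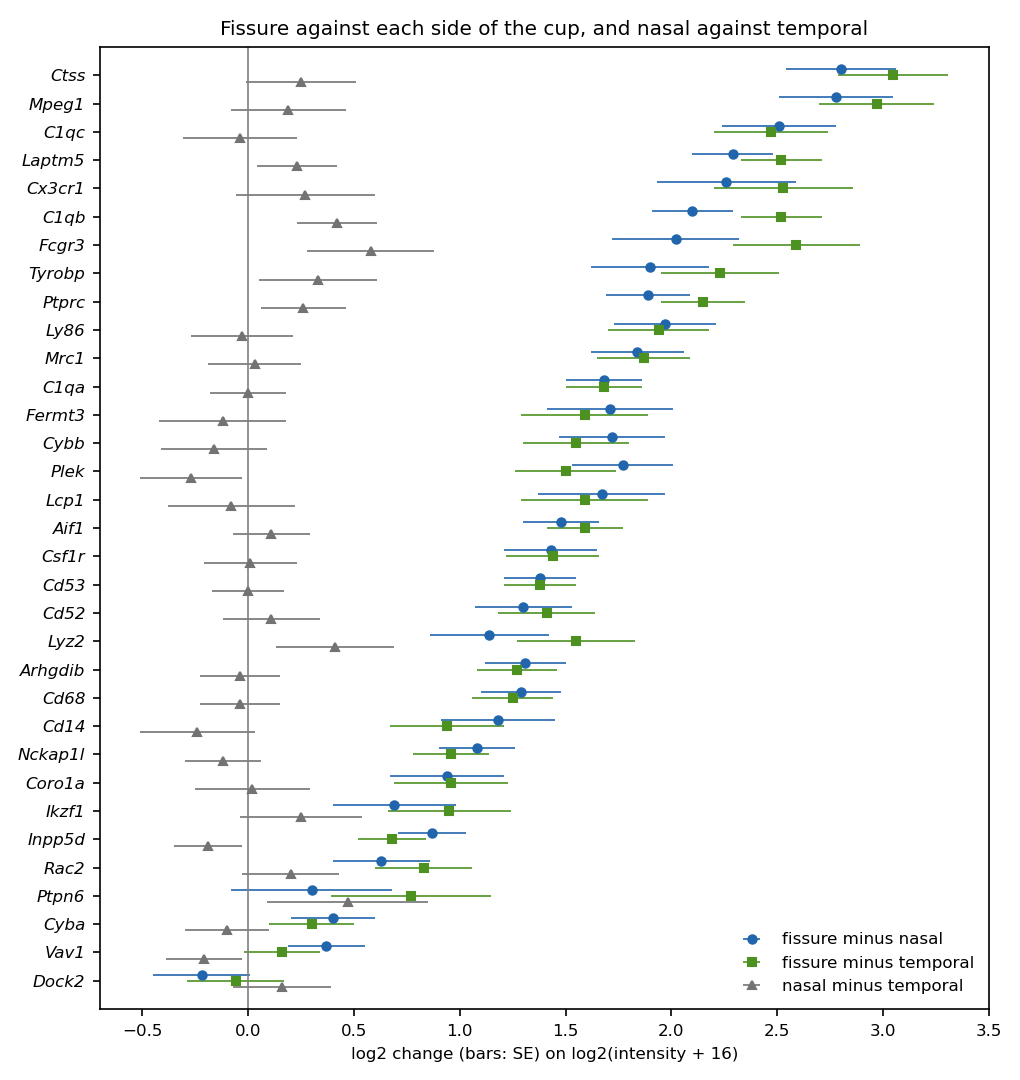
Log2 change of each tested member on log2(intensity + 16) for fissure minus nasal, fissure minus temporal and nasal minus temporal cup, with bars of 1 SE. Ctss lies at 2.80, 3.05 and 0.25, and the nasal minus temporal values lie between -0.27 for Plek and 0.58 for Fcgr3.

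The labels do not say what arrays of the same letter share. Because such arrays deviated together in these data, the letters were treated as a batch, and the direction was read within each. On log2 values the fissure array was the highest of the 3 arrays of its letter in 36 of 38 members for letter A, 35 for B and 35 for C, against 45%, 34.7% and 41.5% of all genes. The median difference within a letter was 1.47 for A, 1.1 for B and 1.65 for C, against 0.05, -0.01 and 0.02 over all genes. In 32 members the fissure was highest in all 3 letters, against 14.3% of all genes. Fissure array B had the lowest of the 3 fissure values in 27 of 38 members. It was also the lowest in 64.7% of the 730 genes called higher in the fissure, so this is no feature of these members alone. Without fissure array B, 28 members were higher.

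Markers of other cells were summed on each array to check what the captures hold. For every gene list below, the share over all tested genes is 5.72% higher and 2.88% lower, and 11% and 6.01% with the replicate block. The lists, like the members, were chosen with earlier results of these data known. Some of their genes needed their fissure arrays to be tested. The summed intensity of the 38 members was 5606.5, 4285.6 and 5595.1 in the fissure, 1380.3, 1472.9 and 1131.6 in nasal and 1412.0, 1360.9 and 1019.8 in temporal cup. Each fissure array lay far above every array of the other regions. Of 17 genes of periocular mesenchyme, 16 were tested, 6 were higher and 2 lower, with sums of 1485.3 to 3081.5 in the fissure, 924.5 to 1580.9 in nasal and 775.4 to 1648.7 in temporal cup. Fissure array B, at 1485.3, had the lowest mesenchyme sum of the fissure and lay within the range of the other regions. The mesenchyme genes Pdgfra (1.10, adjusted p = 0.00558), Lum (1.69, adjusted p = 0.00619) and Eya2 (1.59, adjusted p = 3.85e-04) were higher, and Postn was lower (-1.43, adjusted p = 0.00234). Of 8 tested lens genes 4 were higher and 1 lower, with sums of 1386.4 to 1970.0 in the fissure, 423.4 to 572.4 in nasal and 338.2 to 997.6 in temporal cup. Fissure array B had the highest lens sum. The part of mesenchyme and lens tissue in the members' change was not tested.

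Blood and vessel genes were less clear. Of 7 tested erythroid genes 0 passed in limma, 4 had an unadjusted p below 0.05 and 3 were higher with the replicate block, with sums of 13405.7 to 18071.3 in the fissure, 9525.6 to 14882.6 in nasal and 11605.2 to 13430.3 in temporal cup. Of 12 tested endothelial genes 0 passed, 3 had an unadjusted p below 0.05 and 2 were higher with the block, with sums of 572.3 to 1081.1, 476.9 to 711.3 and 576.7 to 809.1. Of 7 tested megakaryocyte and platelet genes only Pf4 was higher, a chemokine of platelets and of embryonic macrophages, and with the block 2 were. Pf4 averaged 291.0 in the fissure against 103.0 and 100 in nasal and temporal cup (log2 change 1.45, adjusted p = 0.0296).

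Most listed lymphocyte and granulocyte markers were too dim to test, with Cd79b among the exceptions. The T cell receptor genes Cd3e, Cd3d and Cd3g averaged 2.77, 0.700 and 2.80 in the fissure, and 1.67 to 8.57 in nasal and temporal cup. Of 8 T cell genes with a probe set, 2 were tested and 0 passed, with none at an unadjusted p below 0.05 in limma, and the sums were 110.0 to 145.7 in the fissure, 61.9 to 163.6 in nasal and 71.6 to 162.9 in temporal cup. The neutrophil genes S100a8 and S100a9 averaged 6.53 and 3.50 in the fissure, and 1 of 11 neutrophil genes was tested and did not pass. The mast cell protease gene Cpa3 averaged 8.10, and of the mast cell list only Kit was tested, which was lower (-1.11, adjusted p = 0.00197) and is also a gene of melanoblasts. Of 7 natural killer cell genes 1 was tested and did not pass, and neither that gene nor the tested neutrophil gene had an unadjusted p below 0.05 in limma. The B cell list had 1 higher gene of 3 tested, Cd79b, at 47.1 in the fissure against 10.5 and 5.07 (1.42, adjusted p = 7.71e-04). Cd79b needed its fissure arrays to be tested, so nothing is read from its call. The other B cell genes Cd79a and Ms4a1 averaged 7.67 and 6.33 in the fissure. The monocyte receptor gene Ccr2 averaged 7.50 in the fissure, and of 4 tested monocyte genes Plac8 was higher (0.65, adjusted p = 0.0230) and Itga4 lower (-0.60, adjusted p = 0.0338). Of 8 tested genes of blood progenitors, Gata2 (0.86) and Cd34 (0.85) were higher and Myb (-0.93) and Kit lower. The mean levels of Cd3e, Cd3d, Cd3g, S100a8, S100a9 and Cpa3 thus lay under the 40th percentile in every region.

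**Figure D4:**
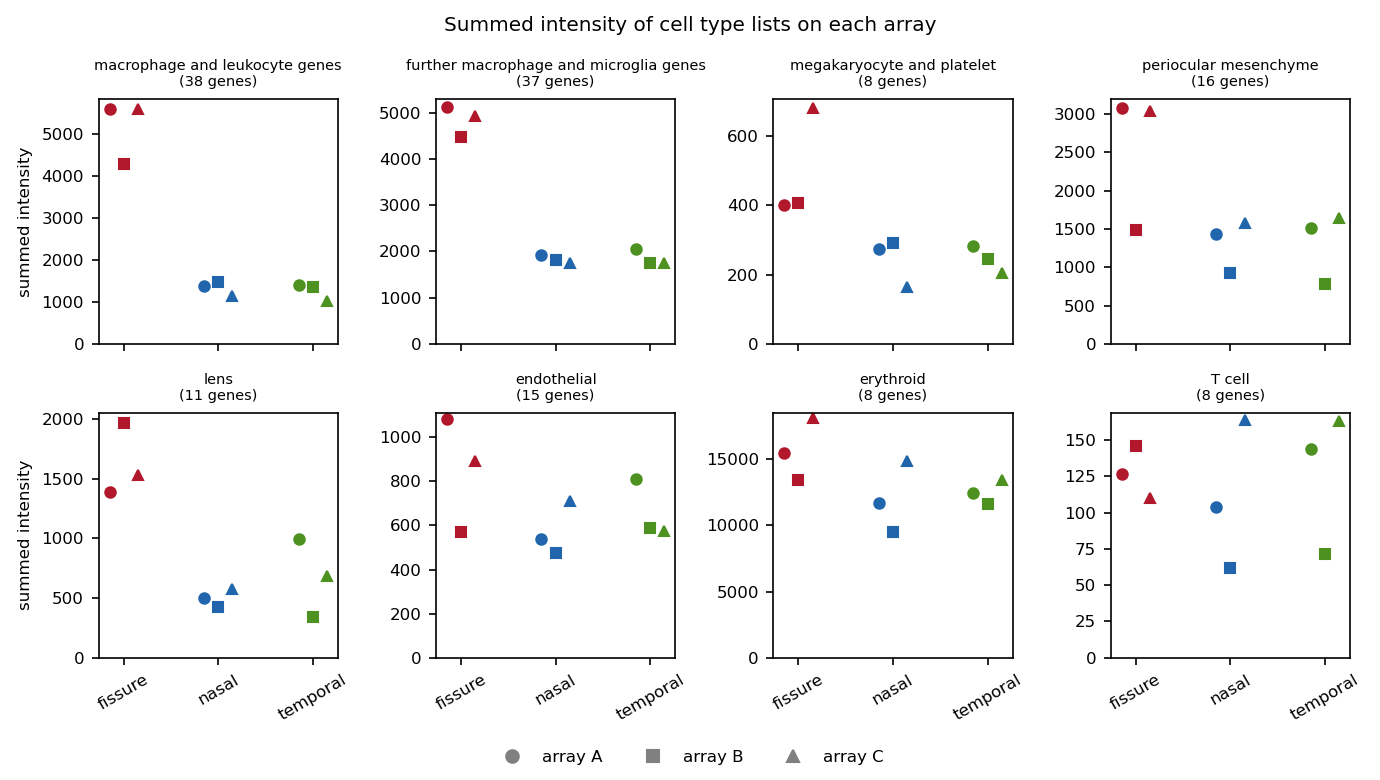
Summed intensity (linear axis from 0) of the genes of 8 lists on each array, with marker shapes for the letters. The members sum to 4285.6 to 5606.5 in the fissure, above all other arrays, whereas the T cell list sums to 61.9 to 163.6 over all arrays with no order of regions.

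Further genes of tissue macrophages, none of them members, were counted next. Of 30 listed, 27 had a probe set and 18 were tested, and 14 were higher and 0 lower in the fissure. Of all tested genes, 5.72% were higher and 2.88% lower. The median log2 change of the list was 1.14 over its tested genes and 0.71 without the filter. The transcription factor gene Maf averaged 1300 in the fissure against 246.0 in nasal cup and 280.0 in temporal cup (log2 change 2.24, adjusted p = 5.82e-05). Lens fibre cells also express Maf, so it marks no single cell type here. Hpgds, a prostaglandin D synthase of macrophages, averaged 82.6 in the fissure against 11.3 in nasal cup (1.84 against the average of both sides, adjusted p = 6.24e-05, and 1.84 against each side). C3ar1, the receptor for the complement fragment C3a, changed by 1.18 and Adgre1, which encodes the antigen F4/80, by 1.33 (adjusted p = 4.06e-04 and 7.19e-04). Timd4 and Cd163, receptors of some resident macrophages, averaged 0.467 and 1 in the fissure and at most 3.80 elsewhere.

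Genes used to tell microglia from other macrophages were also counted. Of 9 tested, 6 were higher and 0 lower, where 5.72% and 2.88% of all tested genes were. With the replicate block 8 were higher, where 11% of all genes were. Fcrls, an Fc receptor relative of microglia, averaged 202.0 in the fissure against 23.9 in nasal cup and 18.9 in temporal cup (log2 change 2.45, adjusted p = 1.33e-04). Sall1, a transcription factor of microglia that neural and kidney progenitors express too, averaged 174.0 against 111.0 and 43.4 (1.14, adjusted p = 0.00513). Its nasal minus temporal log2 change was 1.08 (adjusted p = 0.416, and 0.018 with the block). The orphan receptor gene Gpr34 averaged 26.3 against 1.90 and 8.07 (1.03, adjusted p = 0.00711). Gpr34, counted among the 6, needed its fissure arrays to be tested, so nothing is read from its call. Sparc, a matrix protein that many cell types make, was the fourth by p (0.98, adjusted p = 0.00711). The purinergic receptor gene P2ry12 changed by 0.76 (adjusted p = 0.0170), and Siglech averaged 5.93 in the fissure and 7.03 to 7.63 elsewhere.

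The ligands and the transcription factors of the macrophage lineage follow. Of the ligands of Csf1r, Csf1 averaged 77.0 in the fissure against 75.1 and 58.2 (log2 change 0.19, adjusted p = 0.567), and Il34 averaged 8.27 against 8.30 and 5.90 and was not tested. The shared receptor chain gene Csf2rb was higher (1.05, adjusted p = 0.00229). Of 14 tested myeloid transcription factor genes 5 were higher and 0 lower, namely Tfec (2.33), Maf, Irf8 (1.59), Mitf (0.93) and Fli1 (0.85). Tfec and Mitf are also genes of the pigment epithelium. Spi1, which encodes PU.1, averaged 26.1 in the fissure against 21.2 and 25.1 (0.11, adjusted p = 0.684).

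Partners of the members within their complexes were counted last. Of 7 tested oxidase genes 5 were higher. Besides Cybb and Rac2 these were Ncf1 (log2 change 1.24, adjusted p = 0.00140) and Ncf4 (0.87, adjusted p = 0.0455), cytosolic subunits of the phagocyte oxidase, and Nox4 (1.42, adjusted p = 9.02e-04), which serves other cell types. The ubiquitous GTPase gene Rac1 averaged 1980 in the fissure against 2060 and 2230 (-0.09, adjusted p = 0.844). Nckap1, the widely expressed relative of Nckap1l, averaged 2220 against 2330 and 2320 (-0.07, adjusted p = 0.809). Of 26 tested genes of the Rac, DOCK and actin list, 6 were higher and 0 lower, and those were the members Plek, Arhgdib, Nckap1l, Lcp1, Coro1a and Rac2. Of 18 tested ITAM pathway genes 4 were higher, with Tyrobp and Inpp5d among them, Syk at 0.76 (adjusted p = 0.00672) and Pik3cg at 0.62 (adjusted p = 0.0397). Vav3 was lower, at 78.2 against 195.0 and 156.0 (-1.04, adjusted p = 0.00280). Among 6 tested Fc receptor genes, Fcrls, Fcgr3 and the high-affinity receptor gene Fcgr1 (1.33, adjusted p = 0.00542) were higher. Of 5 tested leukocyte integrin genes Fermt3 was higher and Itga4 lower, and 2 were higher with the block.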

How the data were processed

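The deposited table holds linear probe set intensity values from 9 one-colour Affymetrix arrays, with all arrays scaled by the authors to the same trimmed mean, as the values show. The summary method and the background correction are not given in the sources used here. Intensity + 16 was put on the log2 scale from the deposited values. Each gene took its single-symbol probe set with the highest mean over 9 arrays (18193 genes from 45101 probe sets). The 12770 genes that exceeded the 40th percentile of intensity on 3 or more arrays were fitted together by region with lmFit and eBayes in limma 3.58.1 (R 4.3.3), and p-values were adjusted by Benjamini-Hochberg over all of them at 0.05. The script was tested on simulated data. Tables and figures used Python 3.11.15, pandas 2.3.3 and matplotlib 3.10.9.

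Arrays of the same letter deviated together from their region's mean, with r of 0.166 to 0.487 over 9 pairs, against -0.438 to 0.218 over 18 other pairs, so the letters were also fitted as a replicate block. The members and gene lists were chosen with earlier results of these data known. Members named with all their values are the 12 with the smallest p and the 10 that were not called, and other list genes are named from the smallest p or as defining markers. The number of arrays limits the precision. Alternatives covered scaling, the constant, the filter, probe set choice, variance modelling, covariates and each array left out.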

Additional observations from a re-analysis of the deposited data

How the results depend on the processing

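With the replicate block, 29, 27 and 27 members were higher in the fissure against the average of both sides, nasal cup and temporal cup, against 28, 26 and 25 without it, and Cyba joined (adjusted p = 0.0472). Raising the filter to the 60th percentile left 18 members to test, of which 16, 15 and 15 were higher. In either direction, 9.06, 6.81 and 6.06% of all genes were then called. Leaving out 1 array gave 25 to 28, 24 to 28 and 24 to 28 higher members, and 0 between nasal and temporal cup. The shares of all genes then called in either direction against the fissure were 4.27 to 13.5, 3.29 to 9.75 and 2.91 to 9.09%. Of 28 called members, 23 kept their call in limma under every alternative that tested them, and Fermt3, Inpp5d, Cd14, Coro1a and Rac2 lost it under at least 1. Fermt3 lost it with the poly-A covariate (1.42, adjusted p = 0.0539). Dock2, never called, had a log2 change of -0.14 as reported, 0.14 with array weights, 0.07 with the poly-A covariate and 0.13 without the letter B arrays, and -0.34 to 0.03 when 1 array was left out. The cause was not tested. The count over all genes in either direction was 1098, against 2172 with the block, 4100 with array weights, 444 with the poly-A covariate and 1721 without fissure array B.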

Other observations

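Of 16 tested lysosomal protease and hydrolase genes, 10 were higher in the fissure by limma, where 5.72% of all genes were, and 0 lower. With the replicate block 15 were higher, where 11% of all genes were, and the median log2 change was 0.96 against 0.04 over all genes. Ctss, Cd68 and Lyz2 of this list are among the macrophage and leukocyte genes. Of the others, Ctsh changed by 1.67, the cysteine protease inhibitor gene Cst3 by 1.36, Ctsd by 1.0 and Ctsb by 0.92.

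Of 9 tested Toll-like receptor genes Ly86, Cd14 and Tlr2 (log2 change 0.77) were higher and 0 lower, and 5 were higher with the block. Of 8 tested chemokine and receptor genes, Cx3cr1, its ligand gene Cx3cl1 (0.57) and Ccl9 (1.10) were higher and Ackr3, a scavenging receptor, lower (-0.89). Of 18 tested engulfment genes, the scavenger receptor gene Stab1 (1.38), Itgav (0.87), the bridging protein gene Gas6 (0.83) and Megf10 (1.0) were higher and 0 lower, with 7 higher and 1 lower with the block. Of 8 tested antigen presentation genes, B2m (0.71) and H2-D1 (0.82) were higher and H2-Ab1 was lower (-0.54, limma adjusted p = 0.0489).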
